A study of Mus musculus with 6 samples.

Results

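The genes described here encode the machinery that brings proteins into mitochondria and the chaperones and proteases that fold or remove them once inside. They were taken from the deposited expression table by name: every symbol that begins with Timm or Tomm followed by a digit, and 19 further symbols for chaperones, import motor parts, proteases, prohibitins and outer membrane sorting proteins. This gave 43 of the 21878 gene symbols in the table, of which 28 were placed on the import side and 14 on the folding and proteolysis side (which took the chaperone parts of the import motor, Hspa9, Grpel1 and Grpel2), and Tomm34, a cytosolic cochaperone, in neither.

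Nearly all mitochondrial proteins are encoded in the nucleus, made in the cytosol and imported. The outer membrane translocase (TOM) is the common entry gate. From there the sorting complex SAM inserts barrel-shaped proteins into the outer membrane, small TIM chaperones carry hydrophobic proteins across the space between the membranes, TIM22 inserts carrier proteins into the inner membrane, and TIM23 with its Hsp70 motor pulls proteins with a presequence into the matrix. There, chaperonin and Hsp70 systems fold the newcomers, ATP-driven proteases degrade what stays misfolded, and prohibitin rings hold the inner membrane proteases in place.

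RNA was measured in HT22 cells, an immortalized mouse hippocampal neuronal line, in 3 control libraries and 3 libraries of cells exposed to aluminum (Al) as 120 µM aluminum maltolate, with 24 h of exposure in the study's general treatment protocol. The libraries are the input RNA of an m6A immunoprecipitation experiment, and while the study's general protocol had a control in culture medium alone and a maltolate control, the labels do not say which of them the sequenced controls were. The Al libraries carry the letter M in their titles, which the labels do not spell out, and they were taken as the treated group because the series names only these 2 groups. The labels call the samples biological triplicates and do not say how cultures were divided, so P-values measure the spread between these libraries. HT22 is a single immortalized line in culture. Of 8 neuronal markers examined, 7 were below 1 FPKM in every library (Rbfox3, Map2, Nefl, Nefm, Snap25, Stmn2 and Syp), and Tubb3 stood at 2.44 to 5.54 FPKM, whereas of 4 markers of mesenchymal cells Col1a1, Col1a2 and Vim stood between 743 and 1960 FPKM and Dcn at 1.24 to 13.4 FPKM. Markers of astrocytes, microglia, oligodendrocytes and endothelium were all below 1 FPKM.

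The values are FPKM, a read count divided by the length of the transcript and the depth of the library, so that levels can be compared between genes of different length. Depth, recovered from the steps between FPKM values, was 38059492 to 44556768 reads in the control libraries and 21125631 to 26670978 in the Al libraries. The 50 most abundant genes held 18.0% to 19.4% of all FPKM in the control libraries and 30.01% to 32.5% in the Al libraries, so the library scaling matters for every value below. The members themselves held 0.563% to 0.648% of it in control and 0.454% to 0.506% in Al. Levels are given as normalised FPKM, which is FPKM divided by a size factor (the median ratio of each library to the average library, 1.174 to 1.209 in control and 0.8023 to 0.9323 in Al). A gene was called higher or lower where the limma test gave a Benjamini-Hochberg adjusted P under 0.05 over all 12889 tested genes and the log2 fold change passed 0.58 in size.

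By this rule 15 of the 42 tested members (35.7%) were higher in the Al libraries and 2 (4.76%) were lower. Over all tested genes, 25.5% were called higher and 23.7% lower. The median log2 fold change was 0.45 over the members and 0.03 over all tested genes. The control and Al libraries did not overlap in 25 of the 42 members (59.5%), a smaller share than the 68.1% over all tested genes. The higher group held the receptor Tomm20, the small TOM subunits Tomm5, Tomm6 and Tomm7, the pore proteins Timm17a, Timm17b, Timm22 and Timm23, the chaperone Timm10, the nucleotide exchange factors Grpel1 and Grpel2, the cochaperonin Hspe1, the prohibitin Phb and the protease subunit Clpp, besides the scarce Tomm20l. The lower group was Htra2, a protease of the intermembrane space, and Mtx2, a subunit of the sorting complex.

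The direction of the members as a group depends on the scaling. With FPKM as deposited, 6 members were called higher (Timm10, Tomm6, Tomm7, Timm17a, Tomm20 and Grpel1) and 7 lower (Htra2, Mtx2, Samm50, Timm9, Timm10b, Timm44 and Timm50). With values rescaled to TPM, 2 were higher (Timm10 and Tomm6) and 14 lower, which were the same 7 with Tomm40, Tomm40l, Timm13, Pam16, Afg3l2, Spg7 and Phb2. Over all 12889 tested genes, FPKM as deposited gave 1736 higher and 5321 lower, and TPM 1140 higher and 6738 lower. The log2 fold change of the median gene shifts under these scalings by -0.46 and -0.77. With quantile normalization 9 of the 42 members were higher, namely Timm10, Tomm6, Tomm7, Tomm20, Timm17a, Timm22, Grpel1, Grpel2 and Dnajc19, and 4 lower, namely Htra2, Mtx2, Samm50 and Phb2. Of the 12889 tested genes, 2777 were higher and 3009 lower with it. Size factors, FPKM as deposited and TPM differ only by a single factor per library. The medians of both sides stood above that of all tested genes under them, a gap that such a factor barely changes. Quantile normalization can change it, and gave medians of 0.34 for import, 0.03 for folding and proteolysis and -0.03 over all tested genes. A change in the RNA content of a cell cannot be told apart from the library scaling in these data. Tomm5, Timm17b, Timm23, Hspe1, Phb and Clpp were not called with FPKM as deposited, TPM or quantile normalization. All of them but Phb lost the call with length corrected as well. Only Timm10, Tomm6 and Htra2 kept their call in all 20 alternative settings tried for them.

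**Figure D1:**
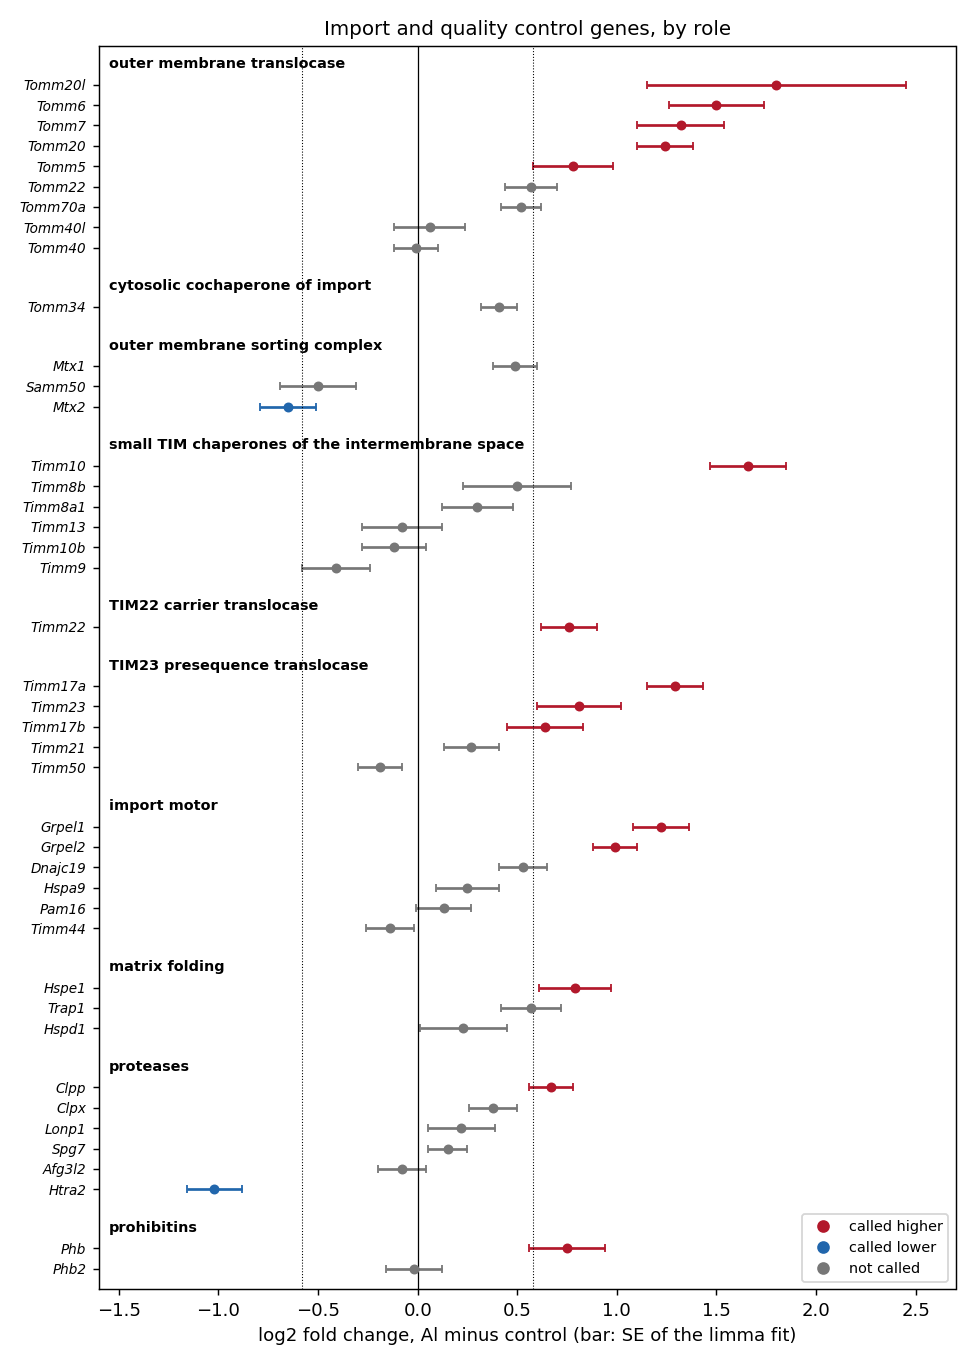
Log2 fold change (Al minus control) of the 42 tested members, grouped by role, with the SE of the limma fit as bars; dotted lines mark 0.58 in either direction. Red points were called higher (15), blue points lower (Htra2 and Mtx2), and within most roles called and uncalled members stand side by side. Of the 25 not called, 8 had an adjusted P under 0.05 and missed only the fold threshold.

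Promoter sequences were examined as a feature that the choice of members did not use. RefSeq promoter windows (build GRCm38.p6, 250 bases before to 50 after a gene's start) were matched for 36 of the 43 members. The core CCGGAAG, bound by factors of the ETS family, was searched on both strands and was present in 15 of the 36 (41.7%) and in 19.7% of the 9785 tested genes with a window. The 36 and the 15 include Timm8a2, which was too low to test, whereas the 9785 are tested genes only. The NRF-1 core GCGCATGC was in 3 members (8.33%, Clpx, Grpel1 and Timm13) against 5.88% of genes, and the heat shock element GAANNTTC in 3 (8.33%, Hspd1, Hspe1 and Timm9) against 6.99%. The amino acid response element TGATGNAA was in none of the 36 windows and in 2.75% of those of all genes. Of the 13 members called higher that have a window, 5 held the ETS core.

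The windows below show the first ETS match, on the gene's own strand, of members that rose (Timm10, Grpel1, Timm23, Hspe1), that came just short of the fold threshold (Tomm22, Tomm70a), that was near 0 (Phb2) and that fell (Mtx2), so that the same letters can be seen beside unlike changes. Capitals mark the matched letters, which read CTTCCGG on the opposite strand.
Timm10: gtcggcgttttCTTCCGGatcaaagaagag
Grpel1: cacctcctcacCTTCCGGggctcccagaag
Timm23: cgcgcttcccaCTTCCGGgccgcacacagc
Hspe1: cgttctaGAACCTTCCGGAAGgccccgcgc
Tomm22: agcccggctcgCTTCCGGAAGacgctctgt
Tomm70a: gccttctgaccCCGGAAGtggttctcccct
Phb2: ttgtaggcagaCCGGAAGttgcaccgaagt
Mtx2: gggcggagcagCCGGAAGtgccggcgcgcg

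The Timm10 window lies at chr2:84826994-84827023 (plus strand), with the match beginning 16 bases before the gene's start, and Timm10 has 3 matches in its promoter. The Grpel1 window is chr5:36464970-36464999 (plus), 204 bases before the start, and the Timm23 window chr14:32201920-32201949 (minus), 47 bases before it. Tomm22 (chr15:79670810-79670839, plus) and Hspe1 (chr1:55088057-55088086, plus) carry the match on both strands, overlapping by 4 letters, and in Hspe1 a heat shock element overlaps it in turn, so capitals there run over all of these. Hspd1 is the neighbouring gene on the opposite strand, and its annotated span includes this stretch. Tomm70a (chr16:57121623-57121652, plus), Phb2 (chr6:124712045-124712074, plus) and Mtx2 (chr2:74825776-74825805, plus) hold the core in the forward orientation. A match is a description of the letters and was not tested as a binding site.

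In the outer membrane translocase, 5 of 9 tested members were called higher (55.6%), the scarce Tomm20l among them, and none lower. Over all tested genes, 25.5% were higher and 23.7% lower. The median log2 fold change of the 9, Tomm20l included, was 0.78. With TPM the values of Tomm5 (-0.01), Tomm22 (-0.21) and Tomm70a (-0.27) turn negative, and Tomm40 (-0.80) and Tomm40l (-0.72) are called lower. Tomm20, a receptor for presequences, stood at 13.0, 16.8 and 18.6 normalised FPKM in control libraries 1 to 3 and at 39.8, 40.7 and 33.7 in Al libraries 1 to 3. All Al libraries lay above all controls, a log2 fold change of 1.24 (SE 0.14, adjusted P = 0.000131), or 2.37-fold. Tomm6, which steadies the complex, was at 71.0, 71.5 and 82.7 in control and at 262, 263 and 138 in Al. Its rise of 1.50 on the log2 scale (SE 0.24, adjusted P = 0.000681) was carried by all 3 Al libraries, of which the third lay well below the others and still above every control. Tomm7, another small subunit, was at 19.5, 20.7 and 20.9 in control and at 69.0, 55.0 and 34.7 in Al (log2 fold change 1.32, SE 0.22, adjusted P = 0.000849). The small subunit Tomm5 rose by 0.78 (SE 0.20, adjusted P = 0.00917), from 36.6 ± 8.05 to 62.9 ± 13.3 (mean ± SD, n = 3).

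The central receptor and the pore of the same complex moved less. Tomm22, the central receptor, measured 59.5, 62.2 and 72.5 in control and 104, 103 and 82.5 in Al, without overlap. Its log2 fold change of 0.57 (SE 0.13, adjusted P = 0.00478) fell just short of the threshold. Tomm22 was called higher with GC correction (0.63) and without control library 3 (0.66) or Al library 3 (0.68). With quantile normalization (0.05) and FPKM as deposited (0.08) its value was near 0. Tomm70a, the receptor for carrier proteins, was at 17.5, 19.5 and 20.5 against 28.3, 27.6 and 26.4, again without overlap and just short (0.52, SE 0.10, adjusted P = 0.00182). Tomm40, the pore itself, was at 62.8, 66.1 and 69.3 in control and at 70.4, 69.8 and 57.2 in Al. Here the groups overlapped, and the log2 fold change was -0.01 (SE 0.11, adjusted P = 0.939). Its paralog Tomm40l had 0.06 (SE 0.18). Tomm20l, a paralog of Tomm20, was called higher at 1.80 (SE 0.65, adjusted P = 0.0377) on 4, 0 and 0 reads in control and 1, 8 and 7 in Al, with overlapping groups, and lost the call in 14 of 19 alternative settings. Tomm34, which hands preproteins to the gate from the cytosol, had 0.41 (SE 0.09, adjusted P = 0.00355), below the fold threshold.

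Subunits of the sorting complex differed, with Mtx2 lower under every scaling and Mtx1 above 0 except with TPM (-0.29). Mtx2 fell, from 28.2, 34.5 and 34.6 in control to 24.4, 19.8 and 18.0 in Al (log2 fold change -0.65, SE 0.14, adjusted P = 0.00342). Without Al library 3 the Mtx2 value was -0.55 and was no longer called. Its partner metaxin Mtx1 was at 18.8 ± 0.575 in control and 26.6 ± 3.42 in Al (0.49, SE 0.11, adjusted P = 0.00465). Samm50, the barrel-inserting channel, was at 52.9 ± 5.13 and 38.2 ± 10.03 (-0.50, SE 0.19, adjusted P = 0.048). Neither Mtx1 nor Samm50 passed the fold threshold, and in neither did the libraries overlap. Samm50 was called lower with FPKM as deposited (-0.99), TPM (-1.29), quantile normalization (-0.88) and length correction (-0.63), and without Al library 1 (-0.59) or Al library 2 (-0.64). Across all libraries left out in turn its value ran from -0.64 to -0.26.

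Among the 6 tested small TIM chaperones, Timm10 was called higher and no other member was. Timm10, which builds the principal small TIM hexamer together with Timm9, measured 9.29, 13.6 and 13.9 in control and 43.6, 41.7 and 30.8 in Al. The lowest Al library was thus above the highest control, and the log2 fold change of 1.66 (SE 0.19, adjusted P = 0.000115), 3.15-fold, was the largest of the members with a mean FPKM of at least 1. With length corrected, Timm10 (1.24) came below Tomm20 (1.36). Timm9, the partner of Timm10, was at 10.7, 8.45 and 11.4 in control and at 9.37, 7.05 and 6.59 in Al (-0.41, SE 0.17, adjusted P = 0.0597). Timm8b (0.50, SE 0.27) and Timm8a1 (0.30, SE 0.18) had positive values, Timm13 (-0.08, SE 0.20) and Timm10b (-0.12, SE 0.16) values near 0, and all 5 had overlapping groups. Timm8a2 was too low to test, with 0 to 7 reads a library.

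In the inner membrane translocases, the channel subunits rose, although the values of Timm17b (-0.14) and Timm22 (-0.03) turn negative with TPM, and the receptor Timm50 had no called difference. Timm17a, a core subunit of the TIM23 channel, was at 46.3, 52.4 and 55.2 in control and at 134, 140 and 104 in Al. Its levels did not overlap and its log2 fold change was 1.29 (SE 0.14, adjusted P = 8.33e-05), 2.44-fold. Timm23, which names the complex, was at 21.1, 26.1 and 32.3 against 58.5, 47.6 and 34.5, the nearest libraries differing by little (0.81, SE 0.21, adjusted P = 0.00899). Timm17b, the paralog of Timm17a, was at 10.9, 13.1 and 15.1 in control and at 23.7, 23.0 and 15.1 in Al. The third libraries were alike at 3 digits, and the call (0.64, SE 0.19, adjusted P = 0.0169) was lost without control library 1, Al library 1 or Al library 2. Timm22, the pore for carrier proteins, rose from 8.74, 9.32 and 11.2 to 18.9, 16.6 and 14.1 (0.76, SE 0.14, adjusted P = 0.00175). Timm50, the receptor that passes preproteins to the channel, was at 33.2, 35.5 and 37.5 in control and at 31.6, 34.7 and 27.2 in Al, overlapping (-0.19, SE 0.11, adjusted P = 0.177). Timm21, which links the complex to the outer gate, had 0.27 (SE 0.14, adjusted P = 0.113).

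The import motor differed by part: its exchange factors rose, while the Hsp70 itself had no called difference, and the call of Grpel1 was lost with TPM (0.43) and that of Grpel2 with FPKM as deposited (0.51) and TPM (0.22). Grpel1, the exchange factor that resets the motor, was at 13.7, 14.9 and 15.9 in control and at 37.8, 38.6 and 28.2 in Al (1.22, SE 0.14, adjusted P = 0.00011), 2.33-fold. Grpel2, its paralog, was at 4.47, 4.79 and 4.70 against 9.39, 8.63 and 10.03 (0.99, SE 0.11, adjusted P = 0.000124). In both genes every Al library stood above every control. Hspa9, the matrix Hsp70 they serve, was at 236, 264 and 313 in control and at 327, 356 and 284 in Al. One Al library fell between the controls, and the value was 0.25 (SE 0.16, adjusted P = 0.206), with the sign turning under quantile normalization (-0.47), FPKM as deposited (-0.24) and TPM (-0.54). Timm44, which tethers Hspa9 to the channel, was at 14.7, 14.8 and 18.7 in control and at 13.8, 14.4 and 15.4 in Al (-0.14, SE 0.12, adjusted P = 0.333). The J-domain partners Dnajc19 (0.53, SE 0.12, adjusted P = 0.00541) and Pam16 (0.13, SE 0.14, adjusted P = 0.461) were not called, the former because its change was below the fold threshold.

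**Figure D2:**
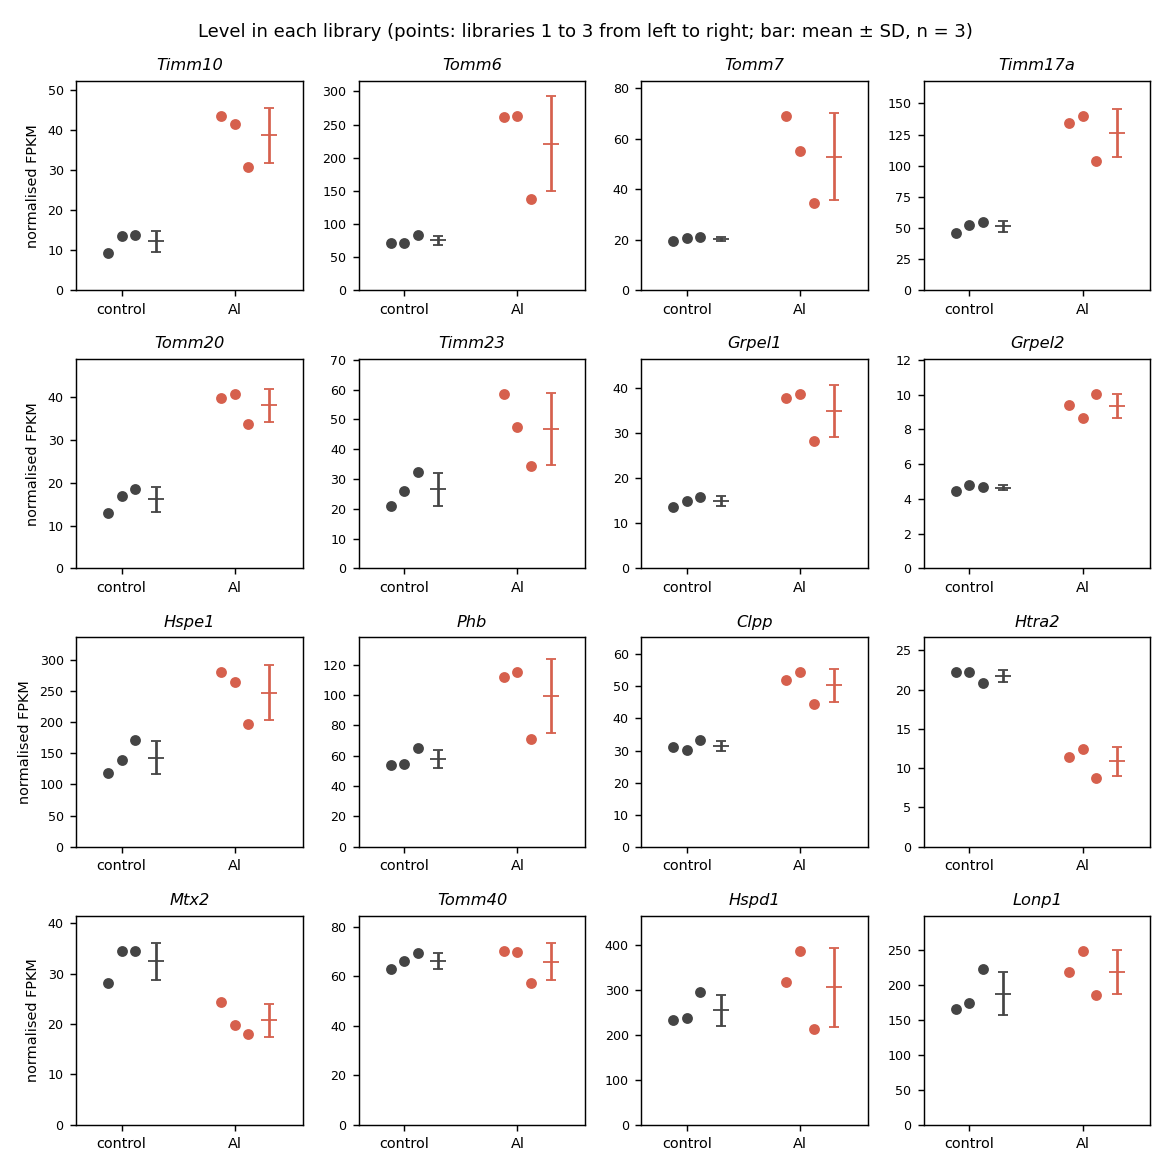
Normalised FPKM of 16 members in each of the 6 libraries, with group mean ± SD (n = 3); every axis starts at 0. Timm10, Tomm6, Tomm7, Timm17a, Tomm20, Grpel1 and Grpel2 stand apart by group, Htra2 and Mtx2 are lower in Al, and Tomm40, Hspd1 and Lonp1 overlap.

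Hspd1 and Hspa9 were the most abundant members on the FPKM scale. Hspd1, the chaperonin Hsp60, was at 234, 237 and 295 in control and at 317, 388 and 213 in Al. The Al libraries ran from below the lowest to above the highest control, and the log2 fold change was 0.23 (SE 0.22, adjusted P = 0.397). Hspe1, the lid Hsp10 that closes the chaperonin, was at 119, 139 and 171 against 280, 264 and 197, without overlap (0.79, SE 0.18, adjusted P = 0.00546). This call was lost with FPKM as deposited (0.30), quantile normalization (0.10), TPM (0.00) and length correction (0.40). Trap1, the mitochondrial Hsp90, was at 31.2, 31.7 and 34.3 in control and at 52.2, 56.1 and 37.7 in Al (0.57, SE 0.15, adjusted P = 0.00975), just below the fold threshold. It was called higher without control library 3 (0.61) or Al library 3 (0.74). Its value was 0.24 with quantile normalization, 0.08 with FPKM as deposited and -0.22 with TPM.

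Of 6 proteases, Clpp was called higher, though its value turns negative with TPM (-0.12), and Htra2 was called lower under every scaling. Clpp, the proteolytic chamber of the ClpXP protease, was at 31.0, 30.2 and 33.3 in control and at 52.1, 54.4 and 44.4 in Al (0.67, SE 0.11, adjusted P = 0.000747). Its unfoldase Clpx was at 8.64, 8.63 and 10.2 against 12.9, 11.1 and 11.7, separate by group but below the fold threshold (0.38, SE 0.12, adjusted P = 0.0196). Htra2, a serine protease of the intermembrane space, was at 22.2, 22.2 and 20.9 in control and at 11.4, 12.4 and 8.74 in Al. It fell by 1.02 on the log2 scale (SE 0.14, adjusted P = 0.000278), to 0.495 of the control level. Lonp1, the main soluble matrix protease, was at 165, 174 and 222 in control and at 219, 249 and 186 in Al, overlapping (0.22, SE 0.17, adjusted P = 0.269). Afg3l2 was at 15.6, 16.0 and 16.7 against 13.6, 17.8 and 14.5 (-0.08, SE 0.12, adjusted P = 0.56), and Spg7 at 24.4, 23.8 and 22.7 against 28.5, 27.2 and 23.3 (0.15, SE 0.10, adjusted P = 0.24). These last proteins together form the matrix-facing protease of the inner membrane, and in both genes the groups overlapped.

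The prohibitins form a ring of alternating Phb and Phb2 proteins. Phb was at 53.6, 54.8 and 64.8 in control and at 112, 115 and 71.3 in Al (0.75, SE 0.19, adjusted P = 0.00703). Phb2 was at 101, 99.5 and 108 against 117, 108 and 82.8 (-0.02, SE 0.14, adjusted P = 0.922). Phb thus rose and Phb2 had no called difference, whereas Phb is not called with FPKM as deposited (0.27), TPM (-0.03) or quantile normalization (0.25), and Phb2 is called lower with TPM (-0.80) and quantile normalization (-0.60).

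Set side by side, the import side had 10 of 27 tested members higher (37.0%) and 1 lower. Its median log2 fold change was 0.50. The scarce Tomm20l is among the 10. When genes averaging under 1 FPKM were left out, 9 import members were higher and the median was 0.49. For comparison, 25.5% of all tested genes were called higher and 23.7% lower. The folding and proteolysis side had 5 of 14 higher (35.7%) and 1 lower, with a median of 0.31. The shares of the sides depend on where the motor is placed. With the whole motor on the import side, 12 of 30 were higher, Tomm20l among them, against 3 of 11. The medians were then 0.51 and 0.23. No test of a difference between the sides was made. Within each library, the mean log2 level of the import side minus that of the folding and proteolysis side was -1.32, -1.24 and -1.30 in control and -1.14, -1.17 and -1.19 in Al. This separation rests on the scarce Tomm20l: without it the gap was -1.09, -0.96 and -1.01 in control and -0.87, -0.98 and -1.0 in Al, so that the groups overlapped, and the mean difference went from 0.12 to 0.07. With FPKM as deposited the median was 0.01 for import and -0.17 for folding and proteolysis, and with TPM -0.29 and -0.47. The sign of both sides thus depends on the scaling. Their order could hardly change between these scalings, which differ by a single factor per library. With quantile normalization the import median minus the folding and proteolysis median was 0.31. After correction for transcript length the order itself was lost (-0.04 for the import median minus the folding and proteolysis median, against 0.18 without it).

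**Figure D3:**
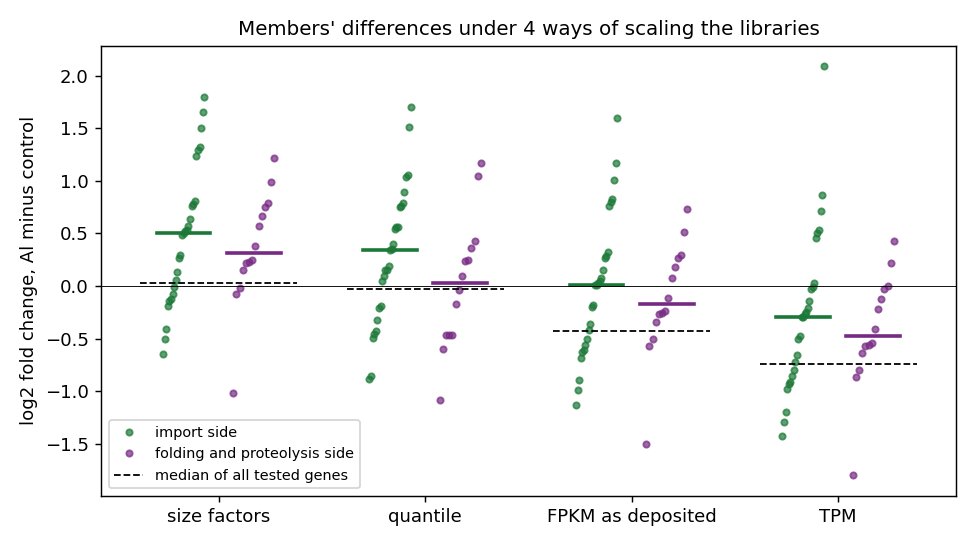
Log2 fold change (Al minus control) of each tested member of the import side and of the folding and proteolysis side under 4 scalings; solid bars are the medians of the sides, dashed lines the median of all tested genes. Size factors, FPKM as deposited and TPM differ by a single factor per library, so both sides shift together with the dashed line. With quantile normalization the medians were 0.34 for import and 0.03 for folding and proteolysis, and the dashed line stood at -0.03.

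Transcript length and pseudogene copies moved with the calls. Of 12 members with a counted length of up to 1200 bases 8 were called higher (66.7%), against 36.6% of the 1277 tested genes that short. Of 30 longer members 7 were higher (23.3%), against 24.3% of longer genes. The correlation of fold change with length was weak, with Spearman's rho of -0.17 over the 42 members and -0.16 over all tested genes, which share libraries and so are not independent. With length corrected, 9 of the 42 members were higher and 4 lower, against 3272 higher and 2966 lower of the 12889 tested genes. A near-identical pseudogene copy, whose reads the counting could share, exists for 11 members, of which 8 were called higher (Tomm20, Tomm7, Timm17a, Timm17b, Timm23, Grpel2, Hspe1 and Phb). Among the 31 tested members without such a copy 7 were higher (22.6%) and 2 lower, close to the background for higher calls. Those 7 are Timm10, Tomm6, Tomm5, Timm22, Grpel1, Clpp and Tomm20l. Near-identical copies that are not annotated as pseudogenes were left out of this count and exist for 6 members, of which Tomm6, Timm8a1, Timm10b and Pam16 have no pseudogene copy and Hspe1 and Timm23 have both kinds. The part of length or copies in the differences was not tested.

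Ratios of paralogs and partners within a library barely depend on a single scaling factor per library, since all these genes lie far above the pseudocount of 0.1, but quantile normalization and length correction can move them. For 12 pairs the log2 ratio of the 2 genes' FPKM was compared by an exact two-sided permutation test over libraries, whose smallest possible P with 3 against 3 is 0.1. In 8 pairs the groups did not overlap (exact P = 0.1, adjusted over the 12 pairs 0.15), so none could pass 0.05. That is 66.7% of the 12, near the 63.8% found over all 861 pairs of tested members, so the count is not particular to these pairs and the shifts below are given as values.

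The largest shift was in Timm9/Timm10, whose products work as a fixed assembly. Its log2 ratio was 0.21, -0.68 and -0.29 in control and -2.20, -2.55 and -2.21 in Al, so that Timm9 went from 0.837 to 0.2 of the level of Timm10. Mtx1/Mtx2 went from -0.55, -0.86 and -0.93 to -0.06, 0.61 and 0.53. The order of the metaxins thus turned, on average, from less Mtx1 to more Mtx1 than Mtx2 (0.583 to 1.28). Phb/Phb2 went from -0.92, -0.86 and -0.74 to -0.07, 0.08 and -0.22, which brought the prohibitin transcripts from 0.559 to nearly equal levels (0.954). Timm17a/Timm17b rose from 3.94 to 6.17 and Tomm20/Tomm22 from 0.249 to 0.396, with control SDs of 0.106 and 0.155 and Al SDs of 0.144 and 0.048 on the log2 scale. Hspd1/Hspe1 went from 0.97, 0.77 and 0.79 to 0.18, 0.56 and 0.12, so that transcripts of the chaperonin and its lid stood nearer to equal (1.79 to 1.22). Timm8a1/Timm13 shifted by 0.38 and Clpx/Clpp by -0.29, also without overlap. With quantile normalization Timm17a/Timm17b shifted by 0.20 instead of 0.65 and Clpx/Clpp turned (0.07), whereas Tomm20/Tomm22 shifted by 1.01 instead of 0.67. With length corrected the shift was 0.39 for Timm17a/Timm17b, -0.22 for Hspd1/Hspe1 instead of -0.56, -0.06 for Clpx/Clpp and 1.10 for Tomm20/Tomm22. Timm9/Timm10 (-1.82 and -1.93), Mtx1/Mtx2 (1.19 and 1.25) and Phb/Phb2 (0.85 and 0.87) moved little under quantile normalization and length correction.

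In the other 4 pairs the groups overlapped. The shift was -0.08 for Tomm40/Tomm40l (exact P = 0.6), 0.22 for Grpel1/Grpel2 (exact P = 0.4), -0.23 for Afg3l2/Spg7 (exact P = 0.2) and 0.02 for Hspa9/Hspd1 (exact P = 0.9). With quantile normalization Tomm40/Tomm40l shifted by -0.64 and Grpel1/Grpel2 by -0.12. With 3 libraries a group these values do not show that the partners moved alike.

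**Figure D4:**
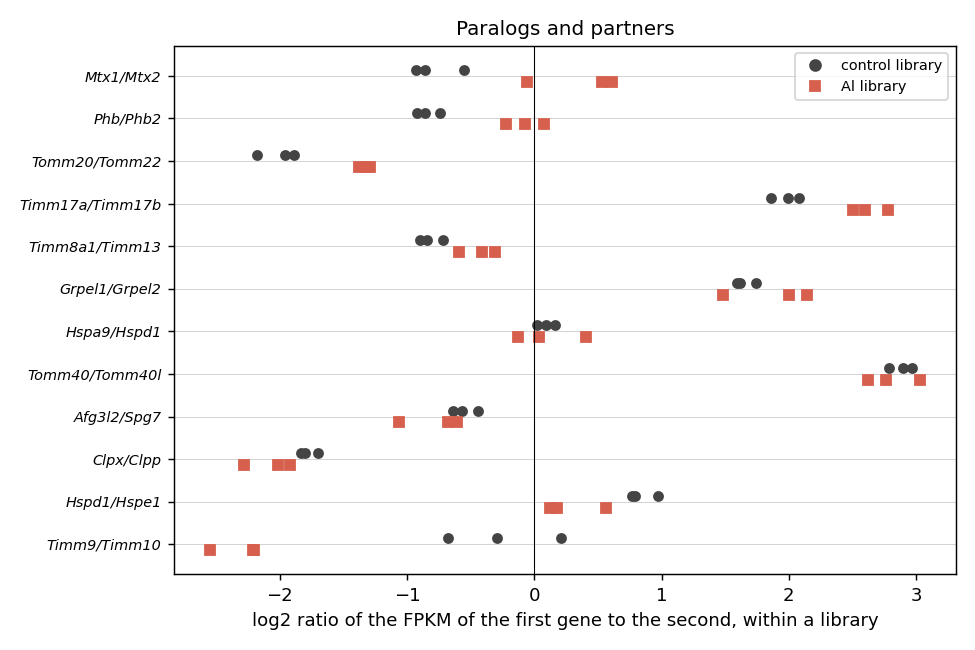
Log2 ratio of FPKM within each library for 12 pairs of paralogs or partners, control libraries as circles and Al libraries as squares. The groups do not overlap in 8 pairs, and the widest gap is in Timm9/Timm10.

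Other genes of the pathway, from a list of 48 symbols of which 45 were tested, had 10 higher (22.2%) and 5 lower (11.1%), with a median log2 fold change of -0.02. The shares over all tested genes were 25.5% and 23.7%, so the higher calls are no more frequent in this list. These calls depend on the scaling. With FPKM as deposited (highest log2 fold change 0.55) and with TPM (0.26) no listed gene passed the fold threshold upward, whatever its P. Called lower were 20 and 29 of the 45. Over all 12889 tested genes, these scalings gave 1736 and 1140 higher and 5321 and 6738 lower. With quantile normalization 4 listed genes were higher (Gfer, Clpb, Hspa14 and Minos1) and 6 lower, against 2777 and 3009 over all tested genes. Both subunits of the presequence peptidase rose, Pmpca by 0.60 (SE 0.10, adjusted P = 0.0012) and Pmpcb by 0.68 (SE 0.10, adjusted P = 0.000393), as did Pitrm1, which degrades the cleaved presequences, by 0.74 (SE 0.10, adjusted P = 0.000355). Gfer, the oxidase that recharges the disulfide relay of the intermembrane space, rose by 1.02 (SE 0.14, adjusted P = 0.000325), while the relay's import receptor Chchd4 had -0.01 (SE 0.12, adjusted P = 0.969). Hspa14, a ribosome-associated Hsp70 relative that the list placed with the matrix cochaperones, had 1.04, and so did Minos1, a cristae junction subunit. Romo1, Parl, Clpb and Dnajc15 were the other genes called higher, at 0.65 to 0.79. With TPM the values of Pmpca (-0.19), Pmpcb (-0.11), Pitrm1 (-0.04), Romo1 (-0.06), Clpb (-0.02) and Dnajc15 (-0.14) were below 0.

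On the lower side stood Lactb (-1.54, SE 0.32, adjusted P = 0.00321), a filament-forming protein of the intermembrane space, and Oma1 (-1.34, SE 0.25, adjusted P = 0.00161), the stress-activated protease of the inner membrane. Immp2l, a subunit of the inner membrane peptidase, was at -0.88 and Timmdc1, an assembly factor of complex I that is no import protein despite its name, at -0.85. Of 6 listed transcription factors, linked with stress responses (Atf4, Atf5, Ddit3 and Hsf1) or with expression of mitochondrial genes (Nrf1 and Gabpa), Atf5 was lower (-0.67, SE 0.15, adjusted P = 0.00499) and none was higher. Atf4 (0.47), Ddit3 (-0.22), Hsf1 (-0.14), Nrf1 (0.15) and Gabpa, a factor that binds the ETS core (7.48 normalised FPKM in control and 7.44 in Al), were not called. With FPKM as deposited Ddit3 (-0.70) and Hsf1 (-0.63) were called lower. With TPM Ddit3 (-1.0), Hsf1 (-0.93) and Gabpa (-0.78) were. Atf4 was below 0 under both scalings (-0.02 and -0.32).

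Al library 3 stood nearer to the controls than the other Al libraries in 13 of the 16 called members with a mean FPKM of at least 1. Without it 17 members were called higher and 1 lower, against 15 and 2 with it.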

How the data were processed

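RNA of HT22 cells was measured in 6 input libraries, 3 control and 3 Al, deposited by the authors as FPKM per gene symbol. Per the paper's methods, reads were trimmed with Trimmomatic, filtered with SortMeRNA and aligned to GRCm38 with HISAT2; the submitters' processing notes name fastp, HISAT2, HTSeq and GRCm39, so coordinates are given only for RefSeq promoter windows. Whole reads were recovered for 100% of the 17688 genes above 0, to within 0.01 of a read.

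FPKM were divided by median-of-ratios size factors, and log2(value + 0.1) was tested with limma 3.58.1 (R 4.3.3, trend) over the 12889 genes whose FPKM averaged 0.1 or more, in place of the authors' DESeq2, since the file holds no counts. Fold changes on this scale understate low genes. Pseudogene copies were found with BLAST 2.17.0 (at least 90% identity over 80% of the coding sequence). The fits were tested on simulated data. Members, roles, pairs and lists were chosen with earlier results of these data known. Every member is named; library values are given for the 6 largest called changes each way at a mean FPKM of 1 or more, the folding and proteolysis side and 10 central translocase genes. Alternatives covered scaling, pseudocount, filter, trend, replicate block, each library left out, unadjusted P, limma voom on recovered reads, GC content and, added after seeing the data, length, pseudogene copies, the placing of the import motor, Tomm20l left out and rescaled partner ratios.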

Additional observations from a re-analysis of the deposited data

How the results depend on the processing

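With 3 libraries a group, small differences may have been missed, and the lower depth of the Al libraries adds error there. The replicate numbers do not pair the libraries (correlations of -0.033, -0.026 and -0.073 between same-numbered libraries). With the number as a replicate block, 14 members were called higher and 2 lower, with no sign turned, and only Tomm20l lost its call. The scaling decides most calls: the rescaled values are given here in order for FPKM as deposited, TPM and quantile normalization. Members called higher numbered 6, 2 and 9 and lower 7, 14 and 4. Over all 12889 tested genes, higher calls numbered 1736, 1140 and 2777 and lower calls 5321, 6738 and 3009. Import members called higher numbered 5, 2 and 7 and lower 6, 10 and 2. Folding and proteolysis members called higher numbered 1, 0 and 2 and lower 1, 4 and 2. The import median was 0.01, -0.29 and 0.34, and the folding and proteolysis median -0.17, -0.47 and 0.03; their difference became 0.31 with quantile normalization. With length corrected, 9 members were higher and 4 lower (import 6 and 3, folding and proteolysis higher 3), the import median was 0.26 and the difference -0.04. With GC content and length corrected, 4 were lower (import 3), folding and proteolysis higher 3, the import median 0.33 and the difference -0.01. Restricted to members without a pseudogene copy, 7 were higher (import 5, folding and proteolysis 2), the import median was 0.27 and the difference 0.05, over fewer genes. With the whole motor on the import side, 3 folding and proteolysis members were higher and the difference was 0.28. The gap between the mean levels of the sides shifted by 0.16 with TPM and by 0.07 with pseudocount 1 or without Tomm20l, against 0.12. The causes were not tested.

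Leaving out each library in turn gave 13 to 17 members higher and 1 to 3 lower, 0 to 2 import members lower, and a difference of the medians of 0.09 to 0.24. Signs turned under TPM for Clpp (-0.12), Clpx (-0.41), Dnajc19 (-0.25), Hspa9 (-0.54), Hspd1 (-0.56), Lonp1 (-0.57), Mtx1 (-0.29), Pam16 (-0.66), Phb (-0.03), Spg7 (-0.64), Timm17b (-0.14), Timm21 (-0.50), Timm22 (-0.03), Timm8a1 (-0.48), Timm8b (-0.29), Tomm22 (-0.21), Tomm34 (-0.37), Tomm40l (-0.72), Tomm5 (-0.01), Tomm70a (-0.27) and Trap1 (-0.22). FPKM as deposited turned Clpx (-0.11), Hspa9 (-0.24), Hspd1 (-0.26), Lonp1 (-0.27), Pam16 (-0.36), Spg7 (-0.34), Timm21 (-0.20), Timm8a1 (-0.18), Tomm34 (-0.07) and Tomm40l (-0.42), and quantile normalization turned Hspa9, Hspd1 and Lonp1 (each -0.47) and Spg7 (-0.04). Length correction turned Pam16 (-0.23, and -0.21 with GC content), and GC correction turned Tomm40 (0.06, with and without the replicate block) and the ratio Tomm40/Tomm40l (0.03). Quantile normalization turned the ratios Grpel1/Grpel2 (-0.12) and Clpx/Clpp (0.07). Leaving out a library turned Tomm40 (-0.06 to 0.09), Phb2 (-0.12 to 0.13), Timm10b (-0.27 to 0.04), Timm13 (-0.23 to 0.16), Tomm40l (-0.08 to 0.27), Tomm40/Tomm40l (-0.19 to 0.01) and Hspa9/Hspd1 (-0.13 to 0.14), values that were near 0 in the full data. Under pseudocount 1, no filter or no trend only Tomm20l changed its call, and under limma voom on recovered reads or the unadjusted P no member did. With a mean FPKM of at least 1 Tomm20l was not tested, and the other 41 members kept their side of the threshold.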
